A study of Mus musculus with 6 samples.

Results

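The AP-1 and immediate early genes described here are 10 genes chosen by name, *Fos*, *Fosb*, *Fosl2*, *Jun*, *Junb*, *Jund*, *Egr1*, *Ier2*, *Dusp1* and *Nr4a1*. All 10 were found among the 54532 genes of a table of RNA sequencing values from mouse femurs. The groups were 3 zingerone libraries, from mice that received zingerone, a compound found in ginger, orally (100 mg/kg each day, 8 weeks), and 3 OVX libraries, from ovariectomized mice given saline. Ovariectomy removes the main source of oestrogen and is used to model postmenopausal bone loss. The labels give both groups a wild-type genotype. They name ovariectomy for the saline group alone and do not repeat it for the zingerone group, although the study is on postmenopausal osteoporosis. No label states an age, a strain or whether a library pooled animals, and the titles add 8, 9 or 10 weeks within each group.

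The table names its columns A1, A2, A3, B1, B2 and B3. The labels give the names A1 to A3 to the OVX libraries and A4 to A6 to the zingerone libraries. B1 to B3 were therefore taken as the zingerone group by elimination, since the study describes 2 groups of 3, and no B column is tied to 1 sample or week. Every comparison below rests on that assignment.

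AP-1 is a transcription factor made of a Jun protein paired with a Jun, Fos or related protein through a leucine zipper. Genes of the Fos and Jun families and other immediate early genes are transcribed within minutes of growth factors, cytokines or stress, before any new protein is made, and their mRNAs are short-lived. In bone, mice without Fos form no osteoclasts, and members of both families also act in osteoblasts and chondrocytes.

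Each library held 16275350 to 17117456 reads. RAW264.7, a macrophage-like mouse line, stands in the characteristics, while the extraction text describes ground femurs. Markers of many bone and marrow cells were present in all libraries, among them *Hbb-bs* (14650 to 31471 FPKM) and *Col1a1* (364 to 1597 FPKM), and *Xist* stood at 82.7 to 96.7 FPKM with 0 reads on *Ddx3y*, *Eif2s3y*, *Kdm5d* and *Uty*. FPKM are reads per kilobase of gene, scaled by library. Libraries stood apart in tissue markers. The 5 chondrocyte genes summed to 329 FPKM in B1, 39.9 in B2 and 85.5 in B3, against 24.7 in A1, 460 in A2 and 51.3 in A3. In bulk tissue, fewer cells of a type and less RNA per cell cannot be told apart.

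Promoters of *Fos*, *Dusp1* and *Nr4a1* are shown because, of the tested members, *Fos* and *Dusp1* varied most between zingerone libraries and *Nr4a1* ran in the opposite order, as described below. RefSeq windows (GRCm38.p6) were found for 8 of the 10 members. Each sequence is the 250 bases upstream of the RefSeq start, 5′ to 3′ on the gene's strand, at chr12:85473640-85473889 (plus strand) for *Fos*, chr17:26508473-26508722 (minus strand) for *Dusp1* and chr15:101266596-101266845 (plus strand) for *Nr4a1*. Capitals mark TGACG or its reverse complement CGTCA, the core of the cAMP response element bound by the CREB family.
Fos: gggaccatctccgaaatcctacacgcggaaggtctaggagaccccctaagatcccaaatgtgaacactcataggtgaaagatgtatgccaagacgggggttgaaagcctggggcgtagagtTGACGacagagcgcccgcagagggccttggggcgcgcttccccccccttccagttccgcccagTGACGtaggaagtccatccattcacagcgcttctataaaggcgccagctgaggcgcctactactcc
Dusp1: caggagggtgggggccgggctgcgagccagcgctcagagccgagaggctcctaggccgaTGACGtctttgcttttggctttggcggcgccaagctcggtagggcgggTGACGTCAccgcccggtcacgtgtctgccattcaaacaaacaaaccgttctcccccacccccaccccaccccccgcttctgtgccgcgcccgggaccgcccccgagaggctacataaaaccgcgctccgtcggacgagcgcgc
Nr4a1: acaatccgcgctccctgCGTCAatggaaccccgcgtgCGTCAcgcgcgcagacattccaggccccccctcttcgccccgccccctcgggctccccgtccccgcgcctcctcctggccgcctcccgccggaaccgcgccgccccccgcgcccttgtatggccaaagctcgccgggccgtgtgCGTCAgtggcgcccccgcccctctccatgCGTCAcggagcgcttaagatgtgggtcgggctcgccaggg

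On either strand the 5-base core was matched 2 times in the *Fos* window, 3 times in that of *Dusp1* and 4 times in that of *Nr4a1*. It was matched 1 time each in *Fosb* and *Junb* and 0 times in *Fosl2*, *Jun* and *Jund*. Of 32851 promoter windows of the same length, 17.8% held at least 1 match. Of the 3 *Dusp1* matches, 2 overlap in TGACGTCA, the full palindromic element, which 1.55% of all windows held. TATAAA, the TATA box, was matched in *Fos* alone of the 8 windows and in 12.4% of all. The AP-1 site TGACTCA, searched on both strands, was matched in none of the 8 and in 4.46% of all windows, and the CArG box, the site of serum response factor, in none of the 8 and in 1.47% of all. These matches describe letters in a window and not binding. Bases beyond the 250 of each window were not searched, and *Egr1* and *Ier2* are not among the 8 windows. A site absent here may thus lie elsewhere in the same gene's promoter. Some RefSeq starts also differ from the gene starts behind the FPKM. The *Nr4a1* window lies inside its listed gene (101254269 to 101274795), as does that of *Fosl2*. The *Jund* window ends at 70697738, ahead of its listed start at 70698949, and the *Dusp1* window partly overlaps its listed gene.

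No member passed the test between zingerone and OVX femurs. Differences were tested with limma on log2(FPKM + 1), a scale that understates changes of low genes, among the 13968 genes that averaged 1 FPKM or more. A gene was called at a Benjamini-Hochberg adjusted p below 0.05. Of the 10 members 9 were tested, and *Fosb* was below the filter. With limma 0 of the 9 were called higher and 0 lower, and over all tested genes percent called was 0 in each direction. Without A2 limma called 46 genes and 0 members, and limma voom on recovered reads called 0 genes, with 862 at an unadjusted p below 0.05. By limma's unadjusted p below 0.05, 1 of 9 members passed, *Junb*, against 977 of 13968 tested genes (6.99%). The 2 groups overlapped for each of the 9 members, while 12.9% of all tested genes had groups that did not overlap (6.16% with zingerone higher and 6.74% with zingerone lower). The median log2 difference was -0.03 for the 9 members, with 4 above 0 and 5 below, and -0.01 over all tested genes. A p above the threshold does not show that levels were alike, so each difference is given with its 95% interval. No label names separate animals, so p-values here reflect spread among these 6 libraries, some of which may be technical.

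**Figure D1:**
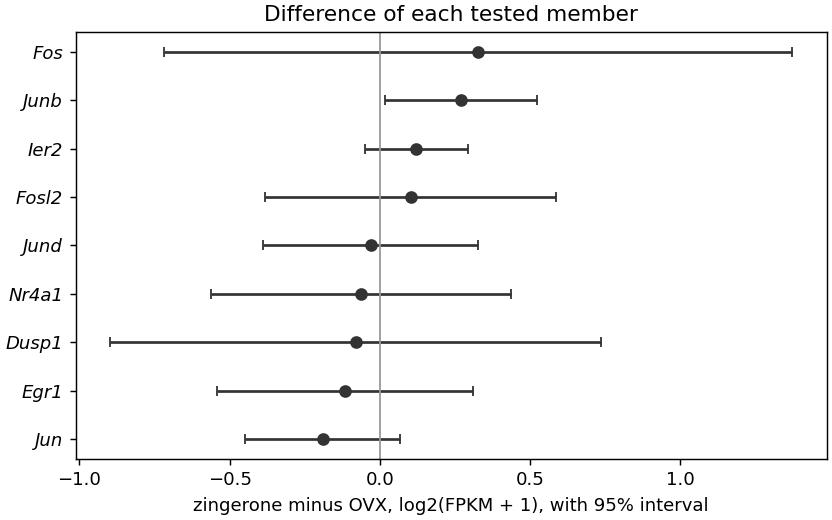
Log2 difference of each tested member, zingerone minus OVX, on the log2(FPKM + 1) scale (points) with 95% limma intervals (bars). Only the Junb interval, 0.02 to 0.52, lies wholly above 0, before any adjustment for 13968 genes, and the Fos interval is the widest, from -0.72 to 1.37.

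The members covered a wide range of levels, and length-scaled FPKM put them in the same broad order in both groups. *Ier2* was highest at 40.5 FPKM over the 6 libraries, followed by *Junb* (29.2), *Jund* (27.2), *Dusp1* (24.0), *Fosl2* (13.5), *Fos* (8.03), *Jun* (8.02), *Nr4a1* (6.22), *Egr1* (4.05) and *Fosb* (0.243). *Ier2* exceeded *Junb*, *Dusp1* exceeded *Fosl2*, *Fosl2* exceeded *Fos*, *Nr4a1* exceeded *Egr1* and *Egr1* exceeded *Fosb* in 6 of 6 libraries. For *Nr4a1* and *Egr1* the gap was within counting error in A2 (5.06 and 5.04 FPKM) and B1 (4.66 and 4.48 FPKM), where their Poisson intervals overlapped. The neighbours *Fos* and *Jun* were not separated, with *Fos* above *Jun* in 1 of 6 libraries. *Junb* was above *Jund* in 4 of 6, *Jund* above *Dusp1* in 5 of 6 and *Jun* above *Nr4a1* in 5 of 6. By mean FPKM *Ier2* ranked 1280 and *Fosb* 18585 among all genes listed.

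**Figure D2:**
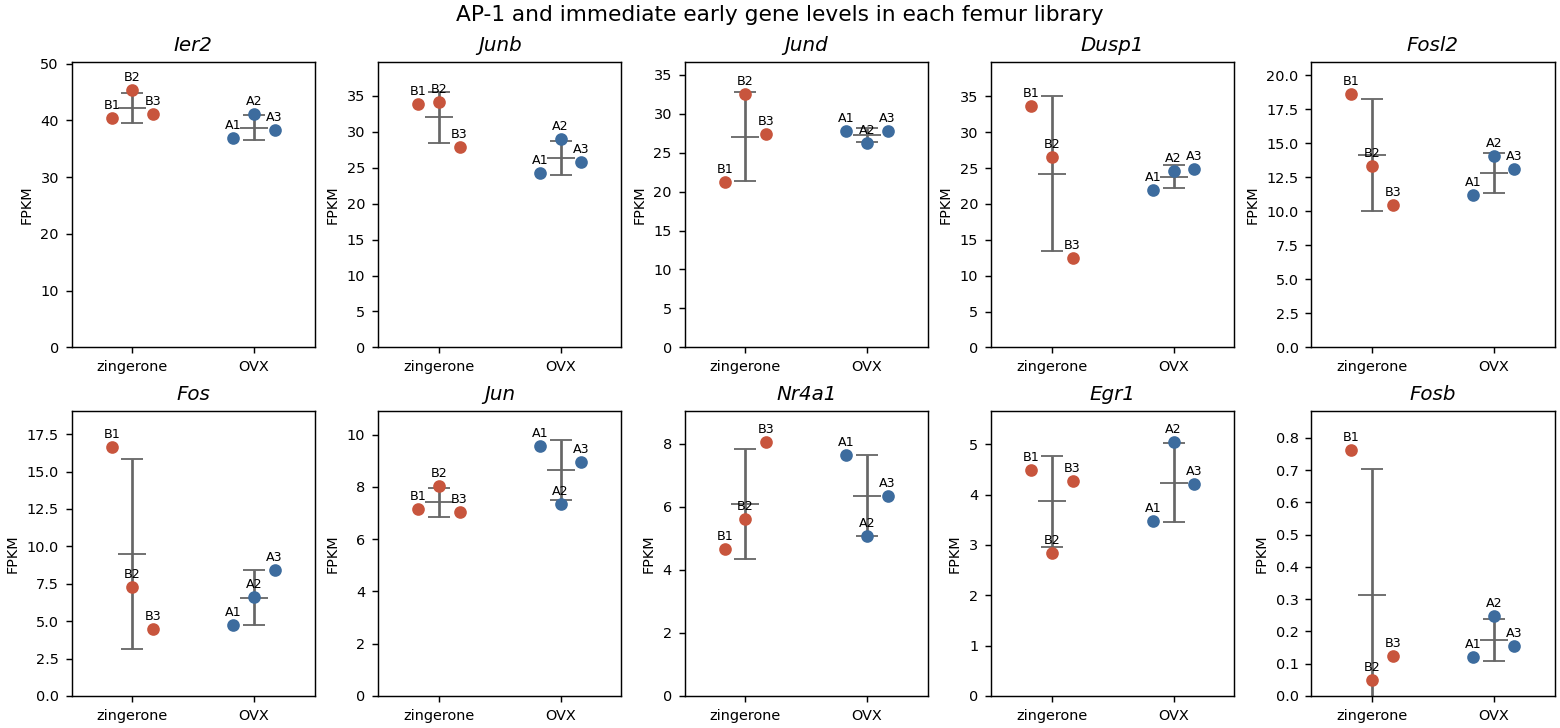
FPKM of each member in the 3 zingerone libraries (B1 to B3) and the 3 OVX libraries (A1 to A3), ordered by mean level, with the mean and SD of each group (n = 3, the lower bar of Fosb drawn to 0). B1 is highest and B3 or B2 lowest among the 6 for Fos, Fosl2, Dusp1 and Fosb, and no panel shows groups that separate.

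Among Fos family members, *Fos* varied most of all tested members. *Fos* (ENSMUSG00000021250, mm10 chromosome 12, 85473890 to 85477273, plus strand), whose protein is required for osteoclast formation in mice, had 16.7, 7.30 and 4.50 FPKM in zingerone libraries B1, B2 and B3, against 4.72, 6.59 and 8.41 FPKM in OVX libraries A1, A2 and A3. B1 alone lay above the OVX range and B3 alone just below it. The zingerone values spanned 3.70-fold and the OVX values 1.78-fold. Counting error was small beside this spread, with exact Poisson 95% intervals of 15.4 to 18.0 FPKM in B1 (626 reads) and 3.89 to 5.19 in B3 (190 reads). The mean was 9.49 ± 6.37 FPKM in zingerone and 6.57 ± 1.84 FPKM in OVX libraries (SD, n = 3 each), a log2 difference of 0.33 ± 0.43 (SE, 95% interval -0.72 to 1.37, limma adjusted p = 0.943). That difference was -0.13 without B1, so its direction rested on 1 library.

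*Fosl2* (ENSMUSG00000029135, chromosome 5, 32135801 to 32157842, plus strand) encodes Fra-2, which acts in osteoblast and chondrocyte differentiation. It had 18.6, 13.3 and 10.4 FPKM in zingerone libraries B1, B2 and B3, against 11.2, 14.1 and 13.1 FPKM in OVX libraries A1, A2 and A3. As for *Fos*, B1 was above and B3 below every OVX library. The log2 difference was 0.10 ± 0.20 (SE, interval -0.38 to 0.59, limma adjusted p = 0.965), and -0.10 without B1.

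*Fosb* (ENSMUSG00000003545, chromosome 7, 19302696 to 19310051, minus strand), whose short splice form raises bone mass when overexpressed in mice, was near the detection limit. It had 76, 5 and 14 reads in zingerone libraries B1, B2 and B3, against 13, 26 and 16 reads in OVX libraries A1, A2 and A3. These gave 0.762, 0.0483 and 0.125 FPKM in zingerone and 0.121, 0.247 and 0.155 FPKM in OVX libraries. The B1 value, with a Poisson interval of 0.60 to 0.954 FPKM, stood above the interval of every other library, the highest of which ended at 0.362. The groups overlapped, and the exact two-sided permutation p was 0.9 (smallest possible with 3 against 3, 0.1). The fourth family gene, *Fosl1* or Fra-1, was also below the filter, at 0.807, 1.02 and 0.980 FPKM in zingerone and 1.02, 0.904 and 0.886 FPKM in OVX libraries.

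*Fosl2* was thus the main Fos family transcript in every library. It made up 50.5%, 61.4% and 65.1% of summed family FPKM in zingerone libraries B1, B2 and B3, and 65.7%, 64.5% and 58.2% in OVX libraries A1, A2 and A3. *Fos* made up 45.2%, 33.6% and 28.0% in zingerone and 27.6%, 30.2% and 37.2% in OVX libraries. The summed family FPKM was 36.9, 21.7 and 16.1 in zingerone libraries, against 17.1, 21.8 and 22.6 in OVX libraries, again with B1 above and B3 below the OVX range.

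**Figure D3:**
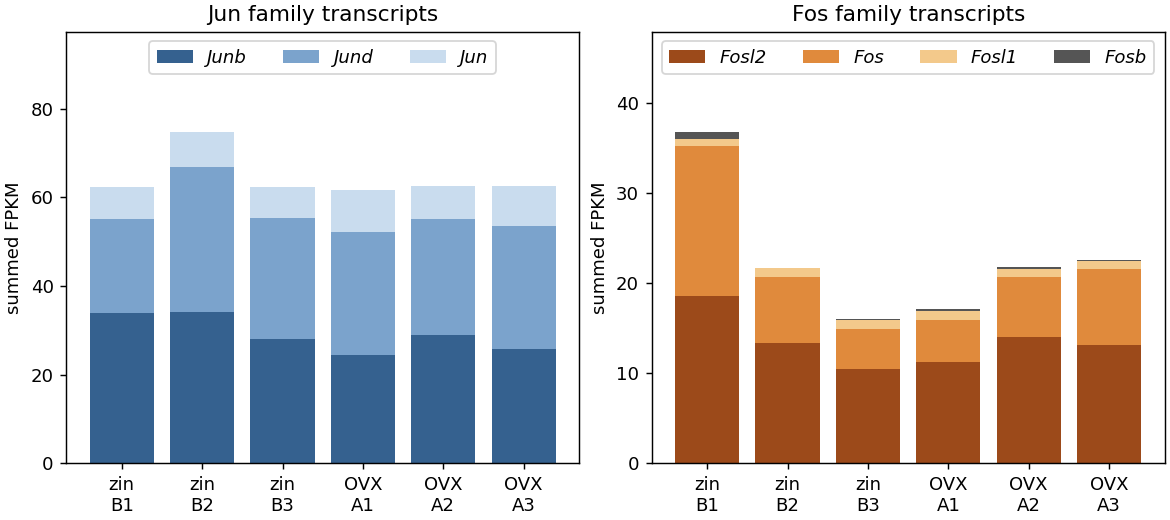
Summed FPKM of the Jun family (left) and Fos family (right) in each library, zingerone then OVX, stacked by gene. The Jun family sum lies between 61.7 and 74.8 in all 6 libraries, while the Fos family sum runs from 16.1 in B3 to 36.9 in B1.

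The Jun family was steadier. Its summed FPKM was 62.3, 74.8 and 62.3 in zingerone libraries B1, B2 and B3, against 61.7, 62.5 and 62.5 FPKM in OVX libraries A1, A2 and A3. Only B2 stood outside a narrow band. The sum was 1.69, 3.44 and 3.88 times that of the Fos family in zingerone libraries, and 3.61, 2.86 and 2.77 times in OVX libraries. The ratio was thus lowest in B1 and highest in B3.

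*Junb* (ENSMUSG00000052837, chromosome 8, 84974484 to 84978718, minus strand), a Jun protein that restrains myeloid cell growth in mice, had the smallest p of the members. It had 33.9, 34.2 and 27.9 FPKM in zingerone libraries B1, B2 and B3, against 24.3, 28.9 and 25.8 FPKM in OVX libraries A1, A2 and A3. B1 and B2 lay above all OVX libraries, while B3 lay between A2 and A3. The mean was 32.0 ± 3.52 FPKM in zingerone and 26.3 ± 2.38 FPKM in OVX libraries (SD, n = 3 each), with a log2 difference of 0.27 ± 0.10 (SE, interval 0.02 to 0.52, limma adjusted p = 0.704). It did not pass the adjusted threshold and ranked 776 by p among all tested genes. *Junb* overlaps *Prdx2*, a peroxiredoxin gene on the opposite strand that had 177 to 279 FPKM in zingerone and 218 to 247 FPKM in OVX libraries. The sources used here do not say whether counting used strand, so reads in the shared stretch may belong to either gene.

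*Jun* (ENSMUSG00000052684, chromosome 4, 95049034 to 95052222, minus strand), the founding Jun protein, had 7.14, 8.05 and 7.03 FPKM in zingerone libraries B1, B2 and B3, against 9.58, 7.35 and 8.95 FPKM in OVX libraries A1, A2 and A3. A1 and A3 stood above all zingerone libraries and A2 among them. The log2 difference was -0.19 ± 0.11 (SE, interval -0.45 to 0.07, limma adjusted p = 0.797). The antisense gene *Junos* overlaps it, at 1.20 to 1.56 FPKM in zingerone and 0.923 to 1.18 FPKM in OVX libraries. *Jund* (ENSMUSG00000071076, chromosome 8, 70698949 to 70700616, plus strand), which slows growth in many cell types, had 21.2, 32.6 and 27.4 FPKM in zingerone libraries, against 27.8, 26.2 and 27.8 FPKM in OVX libraries. The OVX values lay within 1.06-fold of each other and between the zingerone extremes. Its log2 difference was -0.03 ± 0.15 (SE, interval -0.39 to 0.33, limma adjusted p = 0.994).

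Within a library, ratios between members do not depend on scaling. Of 36 ratios between 2 tested members, 2 had groups that did not overlap, where 12.9% of all tested genes taken singly did so. The share over ratios of other genes was not computed. Both ratios have *Jun* as the denominator, so they are not separate observations. *Junb* was 4.74, 4.25 and 3.98 times as high as *Jun* in zingerone libraries B1, B2 and B3, and 2.54, 3.94 and 2.88 times as high in OVX libraries A1, A2 and A3. *Ier2* was 5.65, 5.62 and 5.84 times as high as *Jun* in zingerone libraries, and 3.85, 5.59 and 4.27 times as high in OVX libraries. The gaps to A2 were narrow in both cases. For each the exact two-sided permutation p was 0.1, the smallest that 3 against 3 allows, and 0.953 after Benjamini-Hochberg adjustment over the 36 ratios.

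*Ier2*, which encodes a small nuclear protein, was the most abundant and least variable of the tested members. *Ier2* (ENSMUSG00000053560, chromosome 8, 84661331 to 84662852, minus strand) had 40.3, 45.3 and 41.1 FPKM in zingerone libraries B1, B2 and B3, against 36.9, 41.1 and 38.2 FPKM in OVX libraries A1, A2 and A3. Zingerone libraries held the upper part of a shared range, with A2 among them. The log2 difference was 0.12 ± 0.07 (SE, interval -0.05 to 0.29, limma adjusted p = 0.803).

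*Dusp1* (ENSMUSG00000024190, chromosome 17, 26505590 to 26508519, minus strand) encodes a phosphatase that switches off the MAP kinases p38 and JNK and so closes a feedback loop on AP-1. It had 33.7, 26.6 and 12.4 FPKM in zingerone libraries B1, B2 and B3, against 21.9, 24.6 and 24.8 FPKM in OVX libraries A1, A2 and A3. The OVX values were close together, and zingerone libraries lay on either side of them, B1 and B2 above and B3 below. The group means were nearly equal, at 24.2 ± 10.8 FPKM in zingerone and 23.8 ± 1.63 FPKM in OVX libraries (SD, n = 3 each). The log2 difference was -0.08 ± 0.34 (SE, interval -0.90 to 0.74, limma adjusted p = 0.994), and it was 0.32 without B3 (limma adjusted p = 0.644).

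*Nr4a1* (ENSMUSG00000023034, chromosome 15, 101254269 to 101274795, plus strand), an orphan nuclear receptor, ran in the opposite order to *Fos* among zingerone libraries. It had 4.66, 5.6 and 8.04 FPKM in B1, B2 and B3, against 7.64, 5.06 and 6.34 FPKM in OVX libraries A1, A2 and A3. B1 was below and B3 above all OVX libraries. The log2 difference was -0.06 ± 0.21 (SE, interval -0.56 to 0.44, limma adjusted p = 0.989). *Egr1* (ENSMUSG00000038418, chromosome 18, 34859823 to 34864984, plus strand), a zinc finger transcription factor, had 4.48, 2.84 and 4.28 FPKM in zingerone libraries, against 3.47, 5.04 and 4.21 FPKM in OVX libraries. B2 was the lowest and A2 the highest of the 6. Its log2 difference was -0.11 ± 0.18 (SE, interval -0.54 to 0.31, limma adjusted p = 0.953).

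Most members varied between libraries of 1 group more than the median tested gene. The residual SD on the log2(FPKM + 1) scale was 0.65 for *Fos*, 0.51 for *Dusp1*, 0.30 for *Nr4a1*, 0.30 for *Fosl2*, 0.25 for *Egr1* and 0.21 for *Jund*, and its median over all tested genes was 0.12. *Fos* stood at percentile 96.2 and *Dusp1* at 93.9 of all tested genes. *Junb* and *Jun* had residual SDs of 0.14, and *Ier2* was steadier, at 0.08 and percentile 25.8. These ranks are a description, since variance also depends on level.

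Markers of other cells moved with some members, and their part in these differences was not tested. The 5 erythroid genes, none at 0, summed to 51576, 38858 and 26397 FPKM in zingerone libraries B1, B2 and B3, against 36683, 39624 and 45930 FPKM in OVX libraries A1, A2 and A3. They were thus highest in B1 and lowest in B3, as were *Fos*, *Fosl2* and *Dusp1*. Over the 6 libraries *Fos* had Pearson r = 0.852 (exact permutation p = 0.0319) and Spearman rho = 0.943 (exact permutation p = 0.0167) with the erythroid sum on the log2 scale. For *Dusp1* these were r = 0.951 (exact permutation p = 0.0125) and rho = 0.829 (exact permutation p = 0.0583). Adjusted by Benjamini-Hochberg over 135 relations of each kind (9 members with 15 lists), the exact permutation p for r and rho was 0.406 and 0.281 for *Fos*, and 0.281 and 0.492 for *Dusp1*. These examples were chosen after their values were seen. Without the 2 libraries farthest from the median, r was 0.849 for *Fos* and 0.398 for *Dusp1*, so that the relation for *Dusp1* rested on those libraries.

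Erythroid genes were not the only list that moved with these members. The 4 endothelial genes, none at 0, summed to 32.7, 39.1 and 45.3 FPKM in zingerone libraries B1, B2 and B3, against 41.0, 40.1 and 40.1 FPKM in OVX libraries A1, A2 and A3. They were lowest in B1 and highest in B3, the reverse of *Fos*, *Fosl2* and *Dusp1*. With the endothelial sum *Fosl2* had r = -0.957 (exact permutation p = 0.00417) and rho = -0.943 (exact permutation p = 0.0167). For *Fos* r was -0.941 (exact permutation p = 0.00556) and rho -0.829 (exact permutation p = 0.0583), and for *Dusp1* r was -0.892 (exact permutation p = 0.0361) and rho -0.943 (exact permutation p = 0.0167). *Nr4a1* ran the other way, with r = 0.819 (exact permutation p = 0.00972) and rho = 0.943 (exact permutation p = 0.0167). Without the 2 libraries farthest from the median, r was -0.708 for *Fosl2*, -0.673 for *Fos*, -0.972 for *Dusp1* and 0.719 for *Nr4a1*. *Egr1* with the 4 osteocyte genes had r = 0.968 (exact permutation p = 0.00556) and rho = 0.829 (exact permutation p = 0.0583), and r = 0.829 without the 2 farthest libraries. The 12 heat shock genes, none at 0, summed to 1286, 966 and 740 FPKM in zingerone, against 1143, 1034 and 1087 FPKM in OVX libraries. They were highest in B1 and lowest in B3, as were *Fos*, *Fosl2* and *Dusp1*. With this sum r was 0.886 for *Dusp1*, 0.717 for *Fosl2* and 0.680 for *Fos* (exact permutation p = 0.0347, 0.118 and 0.157). *Dusp1* had rho = 0.486 (exact permutation p = 0.356). Without the 2 farthest libraries r was -0.916, -0.733 and -0.531 in that order. Of the 135 relations, 13 had an exact permutation p below 0.05 by r and 10 by rho. After Benjamini-Hochberg adjustment none passed, and the smallest adjusted p was 0.188 by r and 0.281 by rho.

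The 5 skeletal muscle genes, none at 0, summed to 40.3, 98.6 and 32.6 FPKM in zingerone libraries B1, B2 and B3, against 886, 63.5 and 584 FPKM in OVX libraries A1, A2 and A3. A1 and A3 formed a group of their own, and these were also the libraries with the highest *Jun*. The order of the 6 libraries by *Jun* was the order by muscle sum. This relation had the smallest exact permutation p of the 135 (0.188 after Benjamini-Hochberg adjustment). No pooled correlation is given because the libraries form separate clusters. Without A1 and A3, the 2 libraries farthest from the median, r was 0.959 over the remaining libraries. The 6 neutrophil genes, none at 0, summed to 27966, 27984 and 27728 FPKM in zingerone libraries, against 21918, 23975 and 22379 FPKM in OVX libraries. All zingerone libraries were above all OVX libraries there, as B1 and B2 were for *Junb*. Of these 6 genes 0 were called by limma, and 6 of 6 had groups that did not overlap, with 12.9% of all tested genes as background.

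**Figure D4:**
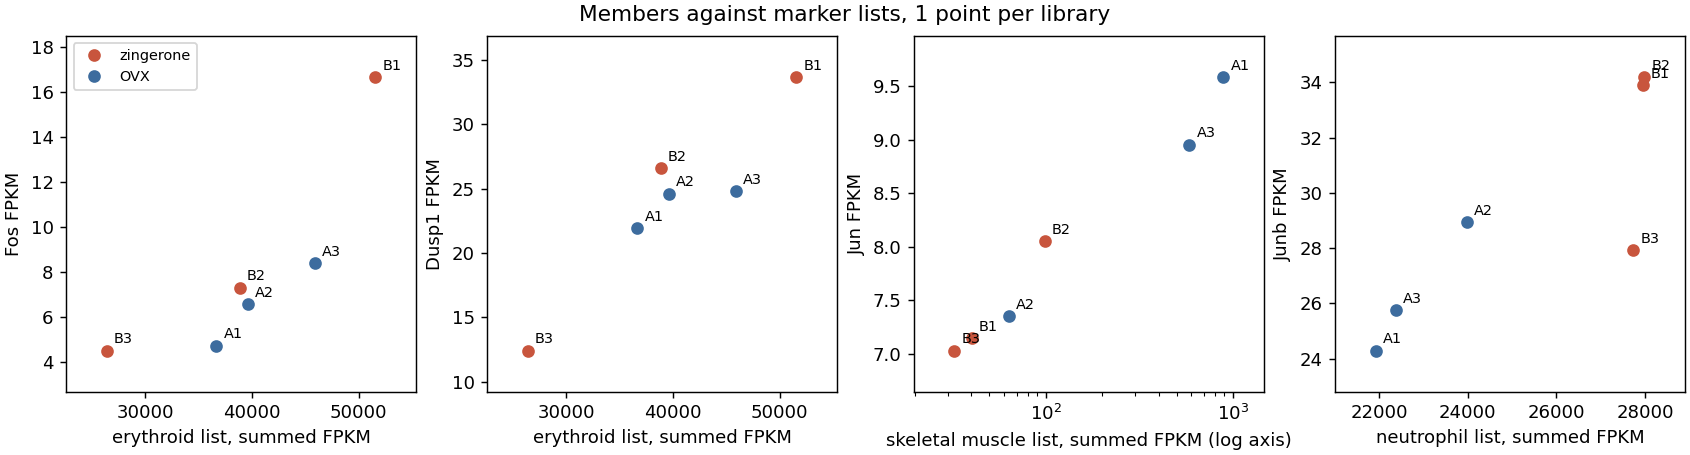
FPKM of 4 members (vertical axes) against the summed FPKM of a cell type list in the same library (horizontal axes, logarithmic for muscle), 1 point per library. B1 is highest and B3 lowest for Fos, Dusp1 and erythroid genes, and A1 and A3 are highest for Jun and muscle genes.

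Other genes of these families and pathways were not called either. With limma 0 genes were called in either direction among 15 tested of 18 other AP-1 and bZIP partners, 40 of 45 other immediate early genes, 28 of 28 upstream MAPK and SRF regulators, 17 of 19 bone genes linked to AP-1 and 11 of 12 heat shock genes. At limma's unadjusted p below 0.05 the counts were 0, 2, 0, 1 and 1 in the same order, against 6.99% of all tested genes. The median log2 differences were 0.02, 0.00, 0.01, 0.16 and -0.17, against -0.01 over all tested genes. Log2 differences were below 0 for all 11 tested heat shock genes and above 0 for 15 of the 17 tested bone genes linked to AP-1. Among all 13968 tested genes 7390 were below and 6578 above 0. Of the 11 heat shock genes 0 had groups that did not overlap, where 12.9% of all tested genes did so. The median residual SD was 0.34 for heat shock and 0.75 for these bone genes, against 0.12 over all tested genes. Genes of 1 list can vary together, so these counts are not of separate observations. *Hspa1a*, an inducible heat shock gene, was the only gene of the heat shock list below the filter. It had 1.01, 0.528 and 0.244 FPKM in zingerone and 1.64, 0.40 and 0.938 FPKM in OVX libraries.

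The companion genes with the smallest p in each list are given as values, since none passed. *Nfil3*, a bZIP repressor, had 11.6, 10.8 and 8.45 FPKM in zingerone libraries B1, B2 and B3, against 8.40, 8.58 and 7.58 FPKM in OVX libraries A1, A2 and A3 (log2 difference 0.29 ± 0.12 SE, limma adjusted p = 0.704). In that list *Creb1* followed with a log2 difference of -0.12. *Ier5* had 21.1, 25.5 and 25.1 FPKM in zingerone, against 21.6, 18.7 and 20.1 FPKM in OVX libraries (log2 difference 0.23 ± 0.09 SE, limma adjusted p = 0.704). Here A1 lay above B1 and the groups overlapped.

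*Dusp2*, a nuclear MAP kinase phosphatase, had 10.0, 18.9 and 16.6 FPKM in zingerone, against 23.9, 21.5 and 20.3 FPKM in OVX libraries (log2 difference -0.54 ± 0.22 SE, limma adjusted p = 0.704). It was the member of its list whose groups did not overlap, 1 of 40 tested, where 12.9% of all tested genes did so. *Dusp5*, a phosphatase of ERK, had a log2 difference of -0.28. Among upstream genes the kinase *Rps6ka1* had a log2 difference of 0.16, *Map2k1* 0.08 and *Nab2*, a corepressor of EGR proteins, 0.18. *Map2k1* was the 1 of 28 tested genes of that list whose groups did not overlap, a share of 3.57%. Its lowest zingerone value was 23.9 FPKM and its highest OVX value 23.6 FPKM.

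Among bone genes linked to AP-1, *Arntl*, the clock factor BMAL1, had 3.05, 4.41 and 2.96 FPKM in zingerone libraries B1, B2 and B3, against 5.09, 5.44 and 4.89 FPKM in OVX libraries A1, A2 and A3 (log2 difference -0.47 ± 0.13 SE, limma adjusted p = 0.660). All zingerone libraries were below all OVX libraries. *Tnfsf11*, which encodes RANKL, had 3.0, 5.66 and 2.89 FPKM in zingerone, against 1.27, 2.73 and 2.62 FPKM in OVX libraries (log2 difference 0.58 ± 0.28 SE, limma adjusted p = 0.745). The lowest zingerone value was just above the highest OVX value. *Arntl* and *Tnfsf11* were the 2 of 17 tested genes of this list whose groups did not overlap, a share of 11.8% against 12.9% of all tested genes. *Runx2*, the master factor of osteoblasts, had a log2 difference of 0.27. Among heat shock genes *Hspb1* had 5.22, 6.55 and 4.87 FPKM in zingerone, against 14.1, 6.28 and 10.8 FPKM in OVX libraries (log2 difference -0.75 ± 0.27 SE, limma adjusted p = 0.704). Its high values were in A1 and A3, the libraries with the highest muscle sums. *Bag3* and *Hspe1* had log2 differences of -0.17 and -0.18.

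The 5 genes whose pattern over the 6 libraries was most like the mean of the 9 tested members, among 11748 other protein coding genes, were *Il1r2*, *Sfxn1*, *Bnip3l*, *Cmas* and *Pramef8*, with Pearson r of 0.991, 0.989, 0.986, 0.986 and 0.986. They are the best of many genes over few libraries, so the values describe a ranking. *Il1r2*, the decoy receptor for interleukin 1, had 23.6, 26.0 and 7.54 FPKM in zingerone libraries B1, B2 and B3, against 10.3, 14.1 and 15.2 FPKM in OVX libraries A1, A2 and A3. It was high in B1 and B2 and lowest in B3. *Bnip3l*, a mitophagy receptor used in red cell maturation, had 89.3, 88.9 and 69.1 FPKM in zingerone and 71.3, 81.4 and 84.4 FPKM in OVX libraries, and was also lowest in B3.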

How the data were processed

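The authors deposited 1 table of FPKM, 1 value per gene and library, with gene lengths. Trimmomatic, FastQC, STAR, featureCounts and the mm10 build are listed, per the submitters' processing notes. For tool versions, strandedness and the FPKM calculation: not given in the sources used here. FPKM times gene length gave whole reads for 100% of values within 0.01 read. The totals behind the authors' FPKM were 0.982 to 1.05 times the reads listed, and median-of-ratios factors were 1 in all libraries, so the deposited FPKM were already level. Depth was 16275350 to 17117456 reads. Poisson intervals (95%) cover counting error only.

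Zingerone and OVX libraries were compared with limma 3.58.1 (R 4.3.3, trended variance) on log2(FPKM + 1), for genes that averaged 1 FPKM or more, with Benjamini-Hochberg adjustment over all of them. The fit was tested on simulated data. The planned edgeR and DESeq2 alternatives were not run because the deposited values are FPKM, and limma voom on the recovered reads was used instead. The 10 members and all lists were chosen with earlier results of these data known. All members are named, the 3 companion genes with the smallest p per list (1 of them is not reported here), and the 5 genes most like the members. Members were compared with sums of 14 cell type lists and 1 heat shock list. Columns B1 to B3 were taken as zingerone by elimination. Python 3.11.15, scipy 1.17.1 and matplotlib 3.10.9 were used.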

Additional observations from a re-analysis of the deposited data

How the results depend on the processing

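Limma called 0 genes, and 0 members, with a pseudocount of 0.1 or 5, with no filter, at a mean of at least 5 FPKM, with median-of-ratios or upper quartile scaling, without the variance trend, and with limma voom on recovered reads, where 862 genes had an unadjusted p below 0.05. With 1 library left out the count of genes ran from 0 to 46, the 46 without A2, and was 0 for members and companion lists. Of the 9 tested members, those whose groups did not overlap numbered 0 with all libraries and 0 to 3 with 1 left out (2 without B3, 3 without A2). Fewer libraries overlap less: among all tested genes the share was 12.9% with all libraries and 19.0% to 27.6% with 1 left out (24.8% without B3, 25.1% without A2). Leaving out B1 and A2, chosen after seeing the data because their cartilage genes stood apart, gave 5 genes called, 0 members called, 3 of 9 members with groups that did not overlap, against 43.7% of all tested genes, and log2 differences of -0.12 for *Fos*, -0.037 for *Fosl2* and 0.10 for *Jund*, each of the opposite sign to the value with all libraries. With 1 library left out, the log2 difference ran from -0.13 to 0.71 for *Fos*, -0.10 to 0.29 for *Fosl2*, -0.17 to 0.13 for *Jund*, -0.25 to 0.087 for *Nr4a1*, -0.22 to 0.048 for *Egr1* and -0.36 to 0.32 for *Dusp1*, all including a change of sign. It ran from 0.22 to 0.36 for *Junb*, 0.07 to 0.16 for *Ier2* and -0.29 to -0.12 for *Jun*, with no change of sign. With no filter *Fosb* had a log2 difference of 0.12 (limma adjusted p = 0.929). No paired analysis was possible because the zingerone columns cannot be tied to the weeks in the titles. At these depths *Fosb*, with 5 to 76 reads, is the member that counting error limits most.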

Other observations

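*Dusp1* was not alone in being low in B3. *Tsc22d3*, *Per1* and *Fkbp5*, known like *Dusp1* to be induced by glucocorticoids, were looked up after the *Dusp1* values had been seen and were not tested. *Tsc22d3*, which encodes GILZ, had 44.1, 54.4 and 16.5 FPKM in zingerone libraries B1, B2 and B3, against 41.0, 54.1 and 47.1 FPKM in OVX libraries A1, A2 and A3. *Per1*, a clock gene, had 16, 16.4 and 4.86 FPKM in zingerone and 13.5, 16.6 and 15 FPKM in OVX libraries. *Fkbp5* had 12.1, 14.1 and 5.98 FPKM in zingerone and 7.77, 13.9 and 10.5 FPKM in OVX libraries. B3 was the lowest of the 6 libraries for each of them. *Zbtb16*, looked up with them, is also known to be induced by glucocorticoids. It had 2.49, 3.35 and 1.75 FPKM in zingerone and 1.51, 4.02 and 2.61 FPKM in OVX libraries. A1 was its lowest library, so B3 was not lowest for every glucocorticoid-induced gene looked up. *Per2* and *Dbp* were in the same look-up. *Per2* had 4.36, 5.35 and 4.89 FPKM in zingerone and 5.39, 5.67 and 5.90 FPKM in OVX libraries. *Dbp* had 3.39, 6.58 and 9.82 FPKM in zingerone and 7.81, 7.24 and 6.16 FPKM in OVX libraries. Both were lowest in B1, and *Dbp* was highest in B3. *Arntl*, also looked up and given above, was lowest in B3.

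Adipocyte genes had another order. *Plin1*, a lipid droplet protein gene, had 0.0404, 11 and 21.0 FPKM in zingerone libraries B1, B2 and B3, against 1.67, 4.92 and 0.117 FPKM in OVX libraries A1, A2 and A3. It was lowest in B1, where *Fos* and *Dusp1* were highest, and highest in B3. With the sum of the 4 adipocyte genes r was -0.721 for *Fos* and -0.728 for *Dusp1*. The exact permutation p was 0.0889 and 0.0778, and 0.545 for each after Benjamini-Hochberg adjustment. Without the 2 libraries farthest from the median, r was -0.0699 and 0.490, so both relations rested on those libraries.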
